A study of Homo sapiens with 36 samples.

Results

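RELA encodes the p65 subunit of NF-kB, and it was examined here together with the genes around it on chromosome 11. The members were the rows of the count table whose Ensembl identifiers carry the symbols RELA, RELA-DT, KAT5, RNASEH2C, AP5B1, SIPA1, PCNX3, MAP3K11 and EHBP1L1, and the row ENSG00000306723, which has no symbol. They were 10 of the table's 74628 genes. None was chosen by a threshold on its values, but they were chosen with earlier results of these data known. The position of ENSG00000306723 is not given here. The study used Jurkat, a human T-cell leukaemia line, in a stable derivative that carries dCas9-VP64 and is labelled mCherry+. In CRISPR activation, dCas9-VP64 joins a Cas9 that cannot cut DNA to the VP64 activator domain, and a guide RNA brings it to a chosen promoter. A pXPR-based lentivirus delivered either a guide against RELA (sgRELA) or a non-targeting guide (sgControl), and puromycin selection of 3 days followed in all groups. RNA was taken on days 5, 6 and 7 after transduction from 3 biological replicates per guide and day, and each RNA gave 2 libraries from 100 pg by RamDA-seq, a full-length method for total RNA.

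These are 6 groups with 18 RNA samples and 36 libraries, and all groups share dCas9-VP64, the viral vector and the selection. As far as the labels say, each guide name stands for 1 guide sequence, so a change near RELA cannot be told apart from other effects of that guide, and no untransduced cells were analysed here. In bulk RNA, more cells with a transcript and more transcript per cell cannot be told apart. The labels say that transductions were done in triplicate, but not whether a replicate number follows 1 culture over the days, nor whether days were processed separately, so day and any processing by day cannot be told apart.

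NF-kB proteins bind DNA as dimers. In resting cells, inhibitors such as the product of NFKBIA hold RELA dimers in the cytoplasm, and signals from antigen and cytokine receptors act through a kinase complex to release them. In T cells the pathway takes part in activation and survival. Many genes start beside a transcript that runs the other way from the same promoter region, and RELA-DT is named as such a divergent transcript of RELA.

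In GENCODE v29 on GRCh38, RELA (ENSG00000173039) occupies bases 65653596 to 65663094 of chromosome 11, minus strand. RELA-DT (ENSG00000285533), a long non-coding RNA, lies from 65663086 to 65671716 on the plus strand, so the annotated genes overlap by 9 bases at their starts. The DNA just before the RELA start is shown because RELA and RELA-DT start there and were both higher with the RELA guide. The sequences are from RefSeq on GRCh38.p14, 5′ to 3′ on the strand of the named gene, and capitals mark the GC box, searched as GGGCGG on both strands. The first stretch is chr11:65663095-65663166, minus strand, which meets the GENCODE start. The second is chr11:65663858-65664107, minus strand, before another RefSeq start of RELA at 65663857, inside the RELA-DT gene.
RELA, at the start shared with RELA-DT: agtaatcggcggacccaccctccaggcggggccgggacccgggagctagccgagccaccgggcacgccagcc
RELA, before the other RefSeq start: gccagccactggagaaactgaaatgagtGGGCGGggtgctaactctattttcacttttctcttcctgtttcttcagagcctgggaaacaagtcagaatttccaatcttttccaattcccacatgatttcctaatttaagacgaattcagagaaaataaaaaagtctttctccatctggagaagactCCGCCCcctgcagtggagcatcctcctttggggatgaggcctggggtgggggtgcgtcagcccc

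The first stretch, 72 bases, was 76.4% G or C and held no GC box. It is part of the 250-base RefSeq window before a RELA start at 65662916, and that whole window, 79.2% G or C, held 1 GC box on its own strand. The second, 250 bases, was 48.4% G or C and held 1 GC box on each strand. RefSeq gave promoter windows for 9 of the 10 members, 11 windows in all, and GGGCGG on either strand occurred in 42.6% of 35116 RefSeq promoter windows. The NF-kB consensus occurred in 5.21% of them. Among the members 1 window held it, that of MAP3K11, on the other strand, and it is not marked below. The stretch shown from that window, before the RefSeq start at 65614221, is chr11:65614250-65614471, minus strand. GENCODE v29 places the start at 65615382, so by that annotation the stretch lies inside the gene. It is shown because MAP3K11 is the coding neighbour whose samples separated by guide on each day.
MAP3K11, before the RefSeq start: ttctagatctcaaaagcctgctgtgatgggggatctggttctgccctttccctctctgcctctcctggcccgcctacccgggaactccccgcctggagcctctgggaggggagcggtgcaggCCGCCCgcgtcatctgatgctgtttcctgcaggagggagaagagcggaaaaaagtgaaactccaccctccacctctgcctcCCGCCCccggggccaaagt

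These 222 bases held 2 GC boxes, both on the other strand. These matches describe letters in the windows and say nothing of what binds there. The guide's own sequence is not given in the sources used here.

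The libraries held 7586205 to 16124473 counts and the RNA samples, with both libraries added, 18769530 to 29503934. All 12 T-cell markers of a list were above 1 CPM in all 18 RNA samples. Of the B-cell markers, MS4A1 was at most 0.173 CPM and CD79B at most 0.640 CPM in any sample, but CD79A was at 16.4 to 26.2 CPM in sgControl and 48.2 to 62.6 CPM in sgRELA. The guides did not overlap, CD79A was called on each day and rose by 1.5 ± 0.08 over all days (log2, adjusted p 3.88e-11), and its part in the results on the members was not tested. The summed myeloid list was 0.316 to 2.42 CPM in sgControl and 1.12 to 3.99 CPM in sgRELA, and the epithelial and erythroid lists stayed at or below 0.934 CPM. CPM is the count scaled to a common library size with TMM factors. All tests were edgeR quasi-likelihood F tests with Benjamini-Hochberg adjustment over all genes tested, and called means an adjusted p under 0.05.

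RELA was higher with its guide in every sample, with the largest log2 fold change of the 10 members. In sgControl the 3 replicates had 31.2, 39.3 and 29.3 CPM on day 5, 30.9, 20.2 and 20.7 on day 6, and 26.5, 25.3 and 22.4 on day 7. In sgRELA they had 318.5, 263.1 and 299.7 CPM on day 5, 223.2, 186.7 and 193.6 on day 6, and 125.8, 135.9 and 119.8 on day 7. The lowest sgRELA sample of any day stood above the highest sgControl sample of any day. The 30.9 CPM of sgControl day 6 replicate 1 joined 1 library at 46.8 CPM with another near the rest of its group, and without the 2 sgControl libraries with the fewest detected genes, this one among them, the day 6 log2 value below was 3.29. The fold change was 8.83 on day 5, 8.41 on day 6 and 5.14 on day 7, with log2 values of 3.14 ± 0.14, 3.07 ± 0.14 and 2.36 ± 0.14 (SE). With counts added over days (3 sums a guide), the level rose from 27.2 ± 2.77 to 209.5 ± 12.9 CPM (SD, n = 3 each), and a two-sided exact permutation of the log2(CPM + 1) means gave p = 0.1, the smallest that 3 against 3 allow.

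Beside the start of RELA, RELA-DT was also higher with the guide, but by less. In sgControl it had 7.37, 6.72 and 3.58 CPM on day 5, 6.47, 4.60 and 4.30 on day 6, and 2.19, 2.65 and 1.5 on day 7. In sgRELA it had 12.97, 9.56 and 15.6 CPM on day 5, 9.74, 11.2 and 8.36 on day 6, and 10.1, 7.19 and 5.87 on day 7. All sgRELA samples were above all sgControl samples of the same day on each of the 3 days. These values rest on 38 to 168 counts per sgControl sample and 140 to 454 per sgRELA sample. The log2 fold change was 1.11 ± 0.31 on day 5 (adjusted p 0.375), 0.93 ± 0.31 on day 6 (adjusted p 0.492) and 1.87 ± 0.32 on day 7 (adjusted p 0.00480). The day 7 call was lost without sgControl replicate 3 (1.67, adjusted p 0.0997), without sgRELA replicate 1 (1.63, adjusted p 0.0698) and with either library alone. Over all days RELA-DT rose by 1.25 ± 0.19 (adjusted p 0.00111), and with library 1 or library 2 alone the value was 1.29 or 1.20 with adjusted p of 0.0974 or 0.0755.

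ENSG00000306723 had the second largest change over all days, but not on day 7, and the fewest counts, and GENCODE v29 does not hold it, so its position and its relation to RELA are not given here. In sgControl it had 1.45, 1.10 and 1.17 CPM on day 5, 0.392, 1.25 and 0.753 on day 6, and 1.04, 1.63 and 1.78 on day 7. In sgRELA it had 6.20, 5.32 and 3.64 CPM on day 5, 5.66, 3.80 and 3.55 on day 6, and 1.93, 4.51 and 1.26 on day 7. The guides did not overlap on days 5 and 6 and overlapped on day 7, where 1 of the 3 sgRELA samples fell among the sgControl samples. It had 8 to 45 counts per sgControl sample and 30 to 153 per sgRELA sample. The log2 fold change was 2.03 ± 0.49 on day 5 (adjusted p 0.151), 2.43 ± 0.50 on day 6 (adjusted p 0.0249), 0.79 ± 0.48 on day 7 (adjusted p 1) and 1.75 ± 0.27 over all days (adjusted p 0.00140). The day 6 call was lost with either library alone (adjusted p 0.679 and 0.444), without the 2 sgControl libraries that have the fewest detected genes (2.34, adjusted p 0.0538) and in 4 fits that left out 1 sample. Those were without sgControl replicate 1 (2.12, adjusted p 0.177) or 3 (2.39, adjusted p 0.157), and without sgRELA replicate 1 (2.19, adjusted p 0.192) or 2 (2.52, adjusted p 0.0591). Over all days the call was lost with library 1 alone (1.52, adjusted p 0.237), and on day 5 DESeq2 made a call (2.03, adjusted p 0.0176).

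**Figure D1:**
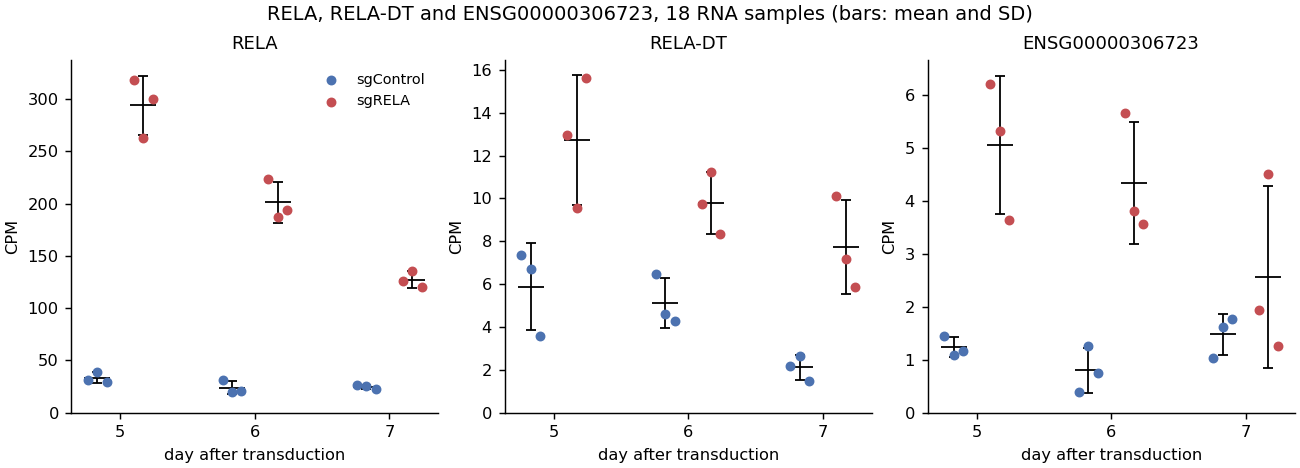
Level in CPM (y axis, each panel on its own scale from 0) of RELA, RELA-DT and ENSG00000306723 by day after transduction (x axis) in the 18 RNA samples; points are RNA samples, blue for sgControl and red for sgRELA, and bars are the mean and SD of 3. RELA in sgRELA steps down from 293.7 to 201.1 to 127.2 CPM while the sgControl means lie between 24 and 33.3 CPM, highest on day 5.

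Over the whole table, few genes were called between the guides. On day 5, 0.138% of 27553 tested genes were called, and of the 10 members 1 was called, RELA. On day 6, 0.214% were called and 2 members, RELA and ENSG00000306723. On day 7, 0.0907% were called and 2 members, RELA and RELA-DT. Over all days, 0.363% of 28888 genes were called and 3 members, all higher. The median log2 fold change of the 10 members over all days was 0.20, beside -0.0019 for all genes tested. The RELA guide is aimed at 1 of these members, and all were chosen with earlier results of these data known. Their counts are thus a description of the locus.

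RELA-DT made up a smaller part of the counts at the locus in sgRELA than in sgControl on days 5 and 6. Per 100 RELA counts, sgControl samples had 23.6, 17.1 and 12.2 RELA-DT counts on day 5, 20.95, 22.7 and 20.7 on day 6, and 8.27, 10.5 and 6.70 on day 7. The sgRELA samples had 4.07, 3.63 and 5.21 on day 5, 4.36, 6.02 and 4.32 on day 6, and 8.05, 5.29 and 4.90 on day 7. The guides did not overlap on days 5 and 6 and overlapped on day 7. ENSG00000306723 stood at a mean of 3.80, 3.69 and 6.09 counts per 100 RELA counts in sgControl and 1.73, 2.14 and 1.97 in sgRELA on days 5, 6 and 7. These ratios are given as a description and were not tested. The strand setting of the counts is not given in the sources used here, so reads from bases that both genes cover cannot be assigned by strand. The shared stretch is 9 bases in GENCODE v29, while the RefSeq starts at 65663006 for RELA-DT and 65663857 for RELA lie further inside the other gene. The same limit holds for KAT5 and RNASEH2C, which overlap by 5600 bases on opposite strands. In absolute terms, the mean over days rose by 182.4 CPM for RELA, 5.93 for RELA-DT and 2.79 for ENSG00000306723.

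**Figure D2:**
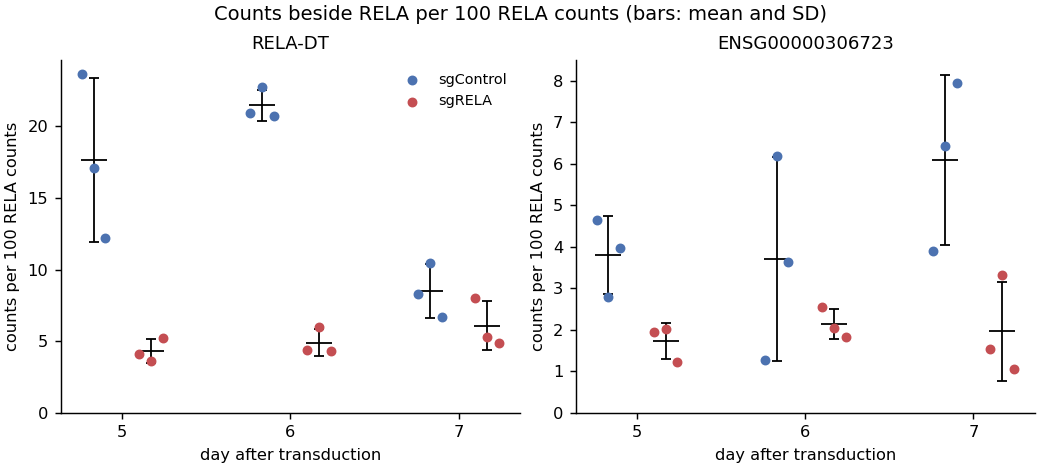
Counts of RELA-DT (left) and ENSG00000306723 (right) per 100 RELA counts (y axis) by day after transduction (x axis); points are RNA samples, blue for sgControl and red for sgRELA, and bars are the mean and SD of 3. For RELA-DT the sgControl mean goes from 17.6 to 21.5 to 8.49 and the sgRELA mean from 4.30 to 4.90 to 6.08.

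The coding neighbours changed little or not measurably. Beyond the 3′ end of RELA lie SIPA1, PCNX3, MAP3K11 and EHBP1L1, whose starts are 25.0, 47.3, 47.7 and 87.1 kb from the RELA start. MAP3K11 (ENSG00000173327; chromosome 11, 65597755 to 65615382, minus strand) encodes a kinase of the JNK pathway. In sgControl it had 28.7, 39.9 and 34.4 CPM on day 5, 38.1, 26.6 and 34.8 on day 6, and 35.9, 33.5 and 29.7 on day 7. In sgRELA it had 48.5, 40.4 and 40.8 CPM on day 5, 47.6, 44.1 and 38.8 on day 6, and 38.8, 41.5 and 37.2 on day 7. All sgRELA samples were above all sgControl samples of the same day on each day, by narrow margins, and 1 of the 2 libraries of sgRELA day 5 replicate 1 stood apart at 60.3 CPM. On days 5, 6 and 7 the log2 fold change was 0.33 ± 0.15, 0.39 ± 0.15 and 0.24 ± 0.15, none called (adjusted p 0.805, 0.621 and 1). Over all days it was 0.33 ± 0.08 with an adjusted p of 0.0915, from 33.3 ± 0.700 to 41.9 ± 2.83 CPM (SD, n = 3 each). It passed with DESeq2 (adjusted p 0.00453), with no filter on low counts (adjusted p 0.00973) and without the 2 sgControl libraries with the fewest detected genes (0.39, adjusted p 0.0389). DESeq2 and the fit with no filter also called more genes in all than the main fit.

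Members whose sgRELA samples all stood above the sgControl samples on each of the 3 days numbered 3, RELA, RELA-DT and MAP3K11, where 0.189% of all tested genes did so. On single days 5.85%, 5.91% and 5.24% of genes separated in this direction on days 5, 6 and 7. EHBP1L1 and ENSG00000306723 separated on 2 days and PCNX3 and SIPA1 on 1 day, and KAT5, RNASEH2C and AP5B1 overlapped on all 3.

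SIPA1 (ENSG00000213445; 65638097 to 65650930, plus strand), a GTPase-activating protein for RAP, starts nearest of the coding neighbours, and its 3′ end lies 2665 bases from that of RELA. Its sgControl samples had 27.1, 40.3 and 34.1 CPM on day 5, 31.2, 20.2 and 26.4 on day 6, and 23.1, 22.6 and 25.3 on day 7. Its sgRELA samples had 40.9, 36.6 and 33.5 CPM on day 5, 33.0, 29.2 and 32.8 on day 6, and 27.9, 29.1 and 32.6 on day 7. The guides overlapped on days 5 and 6 and did not on day 7. The log2 fold change over all days was 0.25 ± 0.08, with a 95% interval of 0.08 to 0.43 and an adjusted p of 0.405.

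EHBP1L1 (ENSG00000173442; 65576038 to 65592650, plus strand) encodes a protein of membrane traffic. Its sgControl samples lay between 29.7 and 44.2 CPM over all days and its sgRELA samples between 37.5 and 49.9 CPM. The guides overlapped on day 5 and separated on days 6 and 7, with log2 fold changes of 0.03, 0.18 and 0.25 and 0.15 ± 0.08 over all days (adjusted p 0.760). PCNX3 (ENSG00000197136; 65615773 to 65637439, plus strand) encodes a membrane protein of the pecanex family, and its start lies 390 bases from that of MAP3K11, which runs the other way. It changed over all days by 0.05 ± 0.07 (95% interval -0.09 to 0.19, adjusted p 0.957), and its samples overlapped on days 5 and 6 and separated on day 7. On day 6 the log2 fold change of PCNX3 was -0.13, and 0.18 without the 2 sgControl libraries with the fewest detected genes.

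Beyond the start of RELA lie KAT5, RNASEH2C and AP5B1, whose starts are 48.9, 57.9 and 117.7 kb away. KAT5 (ENSG00000172977; 65711996 to 65719604, plus strand) encodes the histone acetyltransferase TIP60, RNASEH2C (ENSG00000172922; 65714005 to 65720947, minus strand) a subunit of ribonuclease H2, and AP5B1 (ENSG00000254470; 65775893 to 65780802, minus strand) a subunit of an adaptor complex of membrane traffic. KAT5 had 25.8 ± 2.65 CPM in sgControl and 24.4 ± 1.08 in sgRELA over all days (SD, n = 3 each), RNASEH2C 29.2 ± 1.63 and 28.98 ± 1.58, and AP5B1 87.2 ± 3.25 and 93.4 ± 3.97. None of the 3 separated by guide on any day. Their log2 fold changes over all days were -0.08 (95% interval -0.29 to 0.12), -0.01 (-0.19 to 0.17) and 0.10 (-0.02 to 0.22), with adjusted p of 0.947, 0.995 and 0.829. The intervals leave room for changes of these sizes. For KAT5 and RNASEH2C the sign turned with library 2 alone (0.14 and 0.11) and without the 2 sgControl libraries with the fewest detected genes (0.03 and 0.04).

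**Figure D3:**
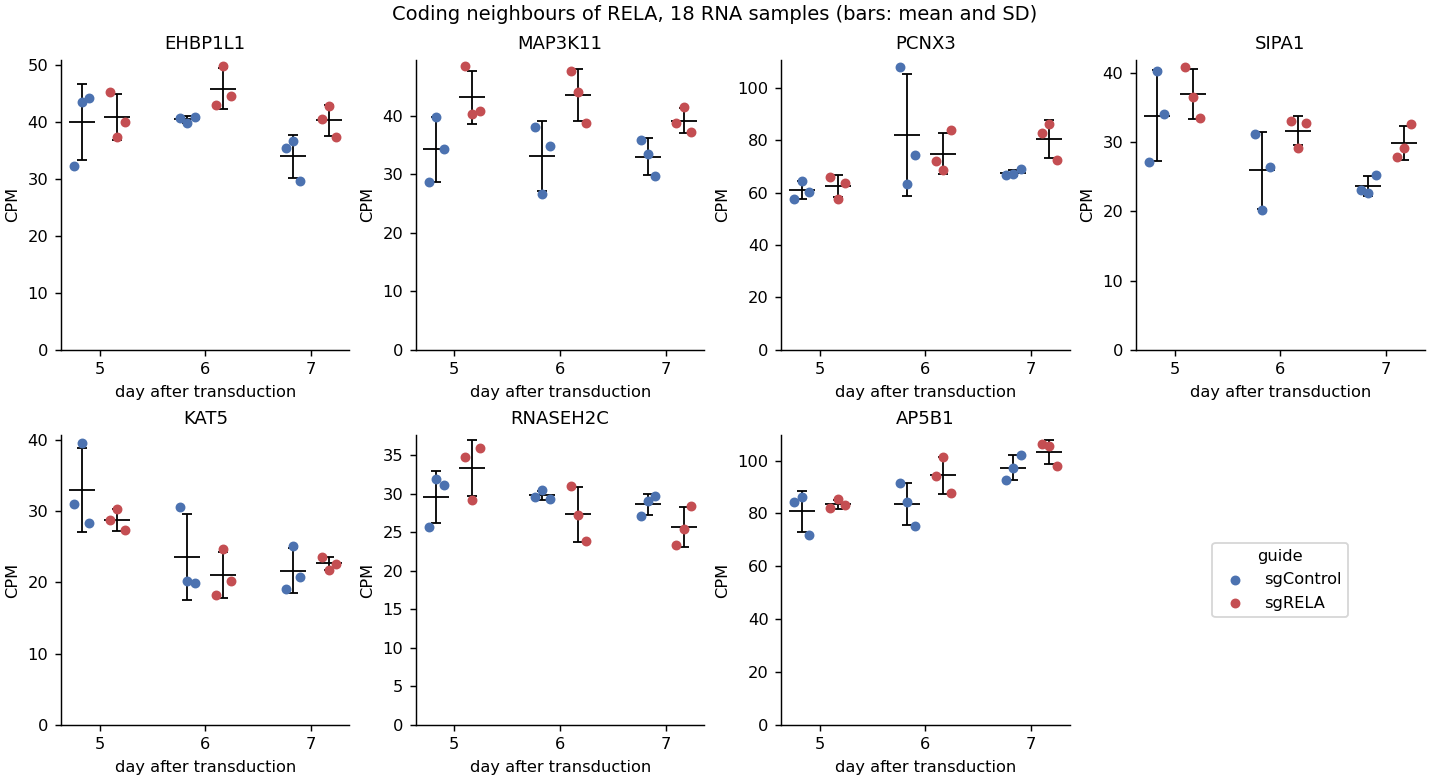
Level in CPM (y axis from 0, each panel on its own scale) of the 7 coding neighbours by day after transduction (x axis) in the 18 RNA samples; points are RNA samples, blue for sgControl and red for sgRELA, and bars are the mean and SD of 3. MAP3K11 is the panel in which red lies above blue on every day, and 1 sgControl sample of PCNX3 stands at 108.2 CPM on day 6.

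The locus was then widened to all annotated genes with a start within 1000 kb of the RELA start. Of 155 such genes in GENCODE v29 besides RELA, 137 were in the table and 105 were tested over all days. The median of their log2 fold changes was 0.02, and 54.3% were positive, beside -0.0019 and 49.6% for all 28888 genes tested. Called over all days were 3, all higher: RELA-DT, CTSW and NEAT1. Of all 28888 genes tested, 0.363% were called over all days. Within 100 kb, 12 genes were tested with a median of 0.11 and 1 call (RELA-DT), though the median of the 11 tested by day was 0.04, -0.12 and 0.24 on days 5, 6 and 7. Within 500 kb, 46 were tested with a median of 0.05 and all 3 calls.

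CTSW (ENSG00000172543; 65879809 to 65883741, plus strand), which encodes cathepsin W, a protease of cytotoxic lymphocytes, starts 216.7 kb from the RELA start. In sgControl it had 55.5, 59.4 and 57.0 CPM on day 5, 81.9, 84.2 and 66.0 on day 6, and 58.4, 85.6 and 76.5 on day 7. In sgRELA it had 100.1, 92.9 and 101.9 CPM on day 5, 145.7, 128.3 and 133.9 on day 6, and 96.3, 96.0 and 107.6 on day 7. The guides did not overlap on any day. CTSW is named because it was called, so this separation is not separate evidence. Of all tested genes, 0.189% had all sgRELA samples above all sgControl samples on each day. CTSW rose by 0.67 ± 0.07 over all days (1.59-fold, adjusted p 2.61e-06), by 0.78 on day 5 and by 0.81 on day 6, and on day 7 its value was 0.44 (adjusted p 0.346). With library 1 alone it was not called on day 5 (0.78, adjusted p 0.125) or day 6 (0.79, adjusted p 0.101).

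NEAT1 (ENSG00000245532; 65422774 to 65445540, plus strand), a long non-coding RNA that scaffolds nuclear paraspeckles, starts 240.3 kb away on the other side. Its sums over days averaged 2241 ± 77.7 CPM with the control guide and 2782 ± 50.6 CPM with the RELA guide (SD, n = 3 each), higher by 0.31 ± 0.03 on the log2 scale (adjusted p 4.1e-07). Its sgControl samples lay between 1891 and 2406 CPM and its sgRELA samples between 2482 and 3073, with no overlap. NEAT1 too is named because it was called, so this is not separate evidence. On single days the values were 0.36 (adjusted p 0.00271), 0.39 (adjusted p 0.000602) and 0.18 (adjusted p 0.920), and with library 1 alone NEAT1 was not called on day 5 (0.44, adjusted p 0.343) or day 6 (0.46, adjusted p 0.269). Members lie between RELA and each of these genes, MAP3K11 towards NEAT1 and KAT5 towards CTSW among them. Neither was called for the guide in the main fits. MAP3K11 was called over all days with DESeq2 (adjusted p 0.00453) and with no filter on low counts (adjusted p 0.00973). Both of these fits called more genes in all than the main fit. Whether the changes of CTSW and NEAT1 are linked to their place near RELA was not tested.

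**Figure D4:**
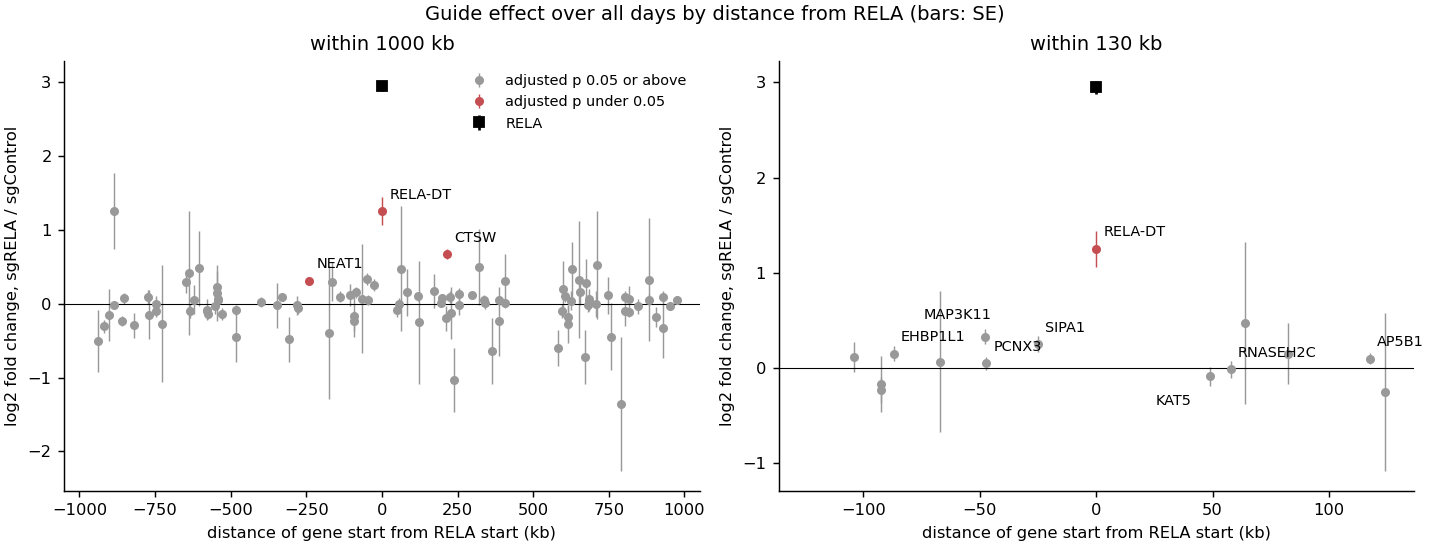
Log2 fold change of sgRELA over sgControl, counts added over days (y axis, bars are the SE), by distance of each gene's start from the RELA start (x axis, kb), within 1000 kb (left) and in a closer view with the members named (right). RELA is the black square at 2.95, red points are the called genes RELA-DT, CTSW and NEAT1, and grey points were not called.

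Per kilobase of exons annotated in GENCODE v29, RELA changed place among the 9 members with a length. The annotation behind the counts is not given and holds ENSG00000306723, which GENCODE v29 lacks. The lengths, and the places that rest on them, may thus not match the counts. In sgControl on day 5, AP5B1 was highest at 16.8 ± 1.60 CPM per kb and RELA was in place 6 at 6.09 ± 0.965, MAP3K11 lowest at 3.25 ± 0.527 (SD, n = 3). RELA's samples, 5.37 to 7.19 CPM per kb, overlapped those of RELA-DT (7.15 ± 2.46) and EHBP1L1 (5.93 ± 0.993) on either side of it. In sgRELA, RELA was highest on each day at 53.8, 36.8 and 23.3 CPM per kb, and AP5B1 followed at 17.4, 19.6 and 21.5. On day 7 the lowest RELA sample of sgRELA had 21.9 and the highest AP5B1 sample 22.1 CPM per kb, so on that day these 2 overlapped.

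Some members also differed between days within each guide, as did many genes of the table. On the log2 scale, RELA in sgRELA fell by 0.55 to day 6 and by a further 0.66 to day 7, with adjusted p of 0.00569 and 0.000385, and day 7 was at -1.21 against day 5 (adjusted p 6.43e-08). With library 1 alone the first 2 of these were -0.46 and -0.68 and were not called. In sgControl, days 6 and 7 stood at -0.48 and -0.43 against day 5 (adjusted p 0.0223 and 0.0319), and day 7 against day 6 at 0.05 (adjusted p 0.889). The fall to day 6 was not called with library 1 alone (-0.20) or without sgControl day 5 replicate 2 (-0.35), day 6 replicate 2 (-0.38) or day 6 replicate 3 (-0.39). The fall to day 7 was not called with library 1 alone (-0.40) or without sgControl day 5 replicate 2 (-0.29), day 7 replicate 2 (-0.44) or day 7 replicate 3 (-0.36). Comparisons that share a day share samples.

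RELA-DT fell in sgControl, by 1.27 ± 0.32 between days 6 and 7 (adjusted p 0.00586) and by 1.48 ± 0.32 between days 5 and 7 (adjusted p 0.00186). The first was not called with library 2 alone (-0.97) or without sgControl day 7 replicate 3 (-1.07), and the second with library 1 alone (-1.16). In sgRELA its change from day 5 to day 7 was -0.72 ± 0.30 (adjusted p 0.133). The 9 sgControl samples of RELA-DT thus lay at 3.58 to 7.37 CPM on days 5 and 6 and at 1.5 to 2.65 on day 7, with no overlap.

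Of the other members, PCNX3 rose in sgControl from day 5 to day 6 by 0.43 (adjusted p 0.0439), and KAT5 and SIPA1 fell in sgControl from day 5 to day 7 by 0.61 (adjusted p 0.0214) and 0.52 (adjusted p 0.0328). AP5B1 rose in sgRELA from day 5 to day 7 by 0.31 (adjusted p 0.0440). Members called between day 6 and day 5 were 2 in sgControl and 1 in sgRELA, where 8.87% and 6.91% of all genes were called. Between day 7 and day 6 they were 1 and 1, with 14.6% and 12.2% of all genes, and between day 7 and day 5 they were 4 and 2, with 13% and 12.4%.

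The calls of PCNX3, KAT5, SIPA1 and AP5B1 were not kept in many of the other fits. PCNX3 was at 0.17 (adjusted p 0.487) without sgControl day 6 replicate 1 and at 0.20 (adjusted p 0.274) without the 2 libraries with the fewest detected genes, and was also not called without day 5 replicate 1 (0.39), 2 (0.47) or 3 (0.42) or with either library alone. KAT5 was not called with either library alone, without those 2 libraries (-0.33, adjusted p 0.227), or without sgControl day 5 replicate 2 (-0.45), day 7 replicate 1 (-0.52) or day 7 replicate 3 (-0.58). SIPA1 was not called with either library alone, without those 2 libraries (-0.35, adjusted p 0.124), or without sgControl day 5 replicate 2 (-0.37) or 3 (-0.51) or day 7 replicate 1 (-0.50), 2 (-0.48) or 3 (-0.57). AP5B1 was not called in any of the 6 fits that left out 1 sgRELA sample (0.29 to 0.34), with either library alone or without a filter on low counts. In sgControl, AP5B1 was not called from day 5 to day 7 (0.27, adjusted p 0.0813), and without the 2 libraries with the fewest detected genes it rose by 0.37 (adjusted p 0.00556).

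**Figure D5:**
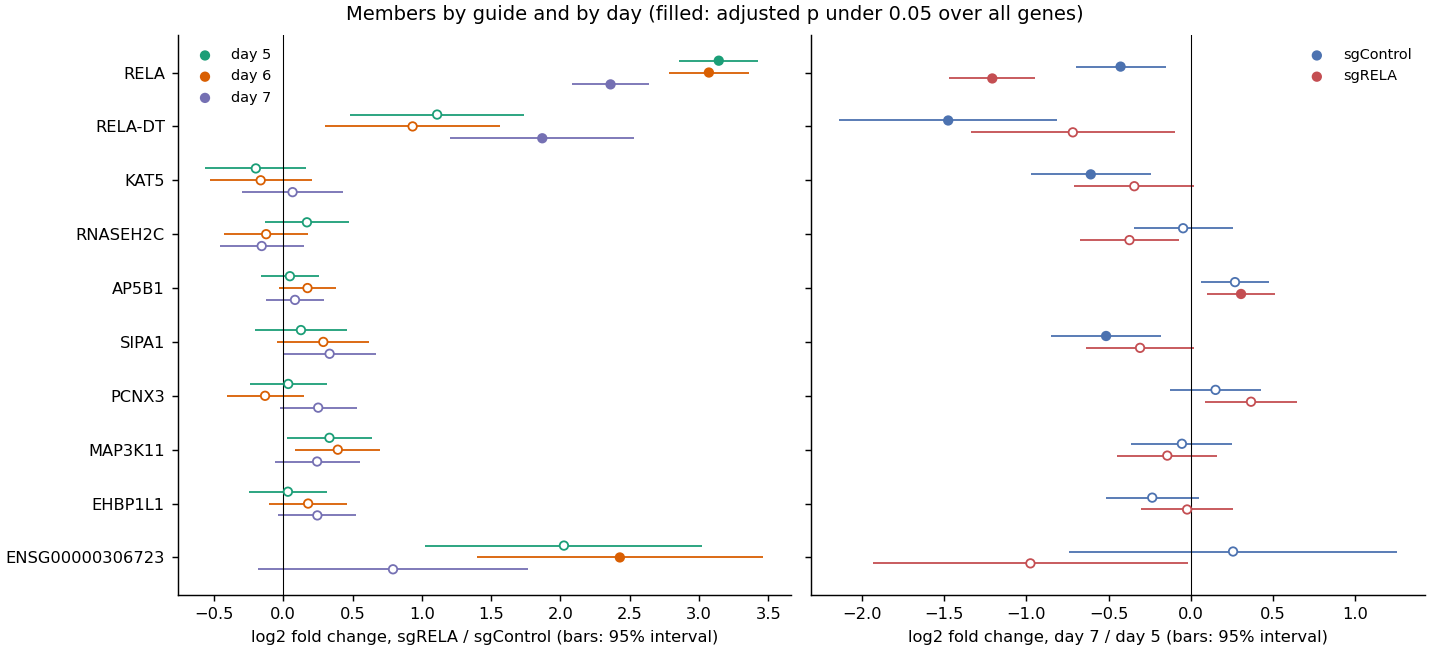
Log2 fold changes with 95% intervals (x axis) of the 10 members (y axis), sgRELA over sgControl on each day (left) and day 7 over day 5 in each guide (right); filled points have an adjusted p under 0.05 over all genes. RELA stands at 3.14, 3.07 and 2.36 on the left, and on the right at -0.43 in sgControl and -1.21 in sgRELA.

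Whether the guide effect itself differed between days was tested as a difference of differences. Of all tested genes 0.00363% passed, which is 1 gene, and of the 10 members 0 were called, with 1 of them, RELA, at an unadjusted p under 0.05 in the joint test of both differences (0.000298). RELA's guide effect on day 7 was lower than on day 5 by a log2 difference of -0.78 ± 0.18 (95% interval -1.16 to -0.40, unadjusted p 0.000211, adjusted p 0.741). Against day 6 the difference was -0.71 ± 0.19 (unadjusted p 0.000651, adjusted p 0.812). DESeq2 called 0 members in these differences. With no filter on low counts both were called (adjusted p 0.00913 and 0.0381). The second was also called without sgControl day 6 replicate 1 (-0.94, adjusted p 0.0185) and without the 2 sgControl libraries with the fewest detected genes (-0.93, adjusted p 0.0139). For RELA-DT the difference between day 7 and day 5 had the other sign, 0.76 ± 0.44 (95% interval -0.14 to 1.66, adjusted p 1), and for ENSG00000306723 it was -1.23 ± 0.68 (95% interval -2.61 to 0.15, adjusted p 1).

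Of the other genes of the pathway, a list chosen with earlier results of these data known was examined. It held 16 genes: partner subunits, inhibitors, kinases and feedback genes. All were tested, and over all days 3 rose, 0 fell and the median log2 fold change was 0.15, beside 0.363% called and a median of -0.0019 over all genes tested. Among the partner subunits RELB rose from 1.30 ± 0.0552 to 5.64 ± 0.577 CPM (SD, n = 3 each), by 2.12 ± 0.22 (adjusted p 7.48e-06), while NFKB1 was at 0.35 ± 0.08 (adjusted p 0.0506), NFKB2 at 0.30 and REL at 0.06. Among the inhibitors NFKBIA rose from 12.97 ± 2.53 to 29.5 ± 1.14 CPM, by 1.19 ± 0.12 (adjusted p 4.5e-06), and NFKBIB, NFKBIE, NFKBID, NFKBIZ and BCL3 were not called. The kinases CHUK, IKBKB, IKBKG and MAP3K14 were at -0.04, 0.04, 0.01 and 0.05, none called. Of the feedback genes TNFAIP3, which encodes a ubiquitin-editing enzyme that limits the pathway, rose by 0.81 ± 0.06 (adjusted p 8.76e-08), and CYLD was at 0.14. Calls on single days were 3, 3 and 2 on days 5, 6 and 7, where 0.138%, 0.214% and 0.0907% of all genes were called, and on day 7 NFKBIA was not called (0.84, adjusted p 0.115). DESeq2 and the fit with no filter on low counts did call NFKBIA on day 7 (0.84 in both, adjusted p 0.00801 and 0.00664). RELB on day 7 (1.93, adjusted p 0.0405) was called in 1 of the 6 fits that left out a replicate, the one without sgRELA replicate 3, and its value in the 6 fits was 1.71 to 2.14. RELB on day 6 was not called without sgControl replicate 3 (1.78) or sgRELA replicate 3 (1.91), and TNFAIP3 on day 7 was not called without sgControl replicate 2 (0.66) or sgRELA replicate 2 (0.69). With either library alone RELB was not called on any day (adjusted p 0.735 and 0.573 on day 5). On day 7 it was also not called with no filter on low counts (adjusted p 0.0708). TNFAIP3 was not called with either library alone on days 5 and 7, nor with library 1 alone on day 6. NFKBIA was not called with library 1 alone on day 6 (adjusted p 0.103).

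Within sgRELA, the genes whose log2 CPM ran most like that of RELA over the 9 samples were PTK7 (Pearson r 0.988), MTHFD2 (0.984), RPL29 (0.981), SBF2 (0.981) and PHGDH (0.981), out of 10464 genes averaging 10 CPM or more. The samples share their days, and 261 genes had r over 0.9, so this describes genes that stepped down over the days. MTHFD2, an enzyme of mitochondrial folate metabolism, went from 316.1 to 214.4 to 135.0 CPM, and PHGDH, of serine synthesis, from 166.8 to 105.4 to 60.7 CPM. By Spearman's rho PTK7 tied with 6 other genes for places 2 to 8, and the other 4 fell outside the closest 5. Over the 18 sgRELA libraries 1 of the 5 was still among the closest 5 (PTK7). Of RELA's neighbours, SIPA1 had r 0.772, RNASEH2C 0.769, MAP3K11 0.587, KAT5 0.506, EHBP1L1 0.147, PCNX3 -0.720 and AP5B1 -0.882 over the same 9 samples. Over the 9 sgControl samples, r with RELA was 0.801 for PTK7, 0.447 for MTHFD2, 0.371 for RPL29, 0.337 for SBF2 and 0.601 for PHGDH. In the order above, the neighbours had 0.810, 0.062, 0.598, 0.909, 0.274, 0.015 and -0.048 there. Whether the falls of MTHFD2 and PHGDH are linked to the RELA guide was not tested.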

How the data were processed

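RNA-seq by RamDA-seq was made from 18 RNA samples in 36 libraries. The authors deposited 1 table of raw read counts per gene. Reads were trimmed with cutadapt 1.18 and aligned with STAR 2.7.9a to GRCh38, per the submitters' processing notes. The counting tool, annotation and strand setting are not given in the sources used here, so counts of overlapping or antisense genes are uncertain. Library totals were 7586205 to 16124473 counts. No molecular identifiers are mentioned.

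Groups came from the labels. The 2 libraries of an RNA were added. Genes were tested with edgeR 4.0.16 in R 4.3.3 (TMM, filterByExpr with a minimum count of 10, quasi-likelihood F test, Benjamini-Hochberg adjustment over all genes tested). A call is an adjusted p under 0.05. Daily and day-to-day comparisons came from 1 fit of 18 sums, and the comparison over days from 6 sums, since a replicate number may mark 1 transduction. The SE was derived from the F statistic, and p-values set a difference against the spread between these samples. Libraries of 1 RNA differed as much as libraries of different replicates in a group. Their median chi-square per degree of freedom was 12.70 in 18 pairs and 12.68 in 72 pairs. The spread between replicates thus includes that of library making. Checks used simulated counts. Alternatives were DESeq2 1.42.0, its size factors, no filter, either library alone, 2 libraries left out, a replicate block and leaving out 1 sample. Positions are from GENCODE v29 and sequences from RefSeq GRCh38.p14. Symbols matched 57693 of 74628 identifiers.

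Named genes were all 10 members, other genes within 1000 kb of the RELA start called in any guide comparison, up to 5 called genes of a fixed pathway list, and the 5 genes most like RELA. The members and lists were chosen with earlier results of these data known. Part of a marker list is not reported here.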

Additional observations from a re-analysis of the deposited data

Results flagged for a closer look

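Each member was searched in each group of 6 libraries for a library far from the other 5, by its gap to the nearest library over the group's range. Of 60 searches 9 passed, where chance flags about 1 in 20, and the 6 libraries come from 3 RNA samples. Of the 9, 4 belong to 1 library, library 1 of sgControl day 6 replicate 1, which also has the smallest total, 7586205 counts. It had RELA at 46.8 CPM against 18.7 to 21.8 in the other 5 libraries, RELA-DT at 9.48 against 3.26 to 5.53, AP5B1 at 125.7 against 70.7 to 86.8 and PCNX3 at 181.6 against 55.1 to 82.3.

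KAT5 stood at 57.2 CPM in library 1 of sgControl day 5 replicate 2, against 23.6 to 34.4 in the others, and at 29.2 in library 2 of sgRELA day 6 replicate 2, against 17.6 to 20.9. MAP3K11 stood at 60.3 CPM in library 2 of sgRELA day 5 replicate 1, against 35.7 to 43.0. ENSG00000306723 stood at 7.54 CPM in library 2 of sgRELA day 6 replicate 1, against 3.13 to 4.45. PCNX3 was low, at 61.7 CPM, in library 1 of sgRELA day 7 replicate 3, against 81.0 to 92.5.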

How the results depend on the processing

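RELA kept its call and direction for the guide on each day and over all days in every alternative run. Counts of called genes moved with the method. For the guide on days 5, 6 and 7 and over all days (38, 59, 25 and 105), DESeq2 called 72, 129, 55 and 242. With no filter on low counts 68 were called on day 5, 55 on day 7 and 221 over all days. Library 1 alone called 15, 15, 13 and 42, and library 2 alone 22 on day 5, 35 on day 6 and 49 over all days. For the differences between days in sgControl, library 1 alone called 430 (day 6 against 5), 1879 (7 against 6) and 820 (7 against 5), and library 2 alone 1374 and 2628 for the first 2. In sgRELA library 1 alone called 196, 961 and 669, library 2 alone 1183 (day 6 against 5) and 2222 (7 against 5), and DESeq2 2888 (day 6 against 5). For the guide by day difference, 24 genes were called with no filter, 3 without the 2 libraries with the fewest detected genes, and 0 with library 1 or library 2 alone. RELA with library 1 alone was -0.20 (day 6 against 5), -0.20 (7 against 6, main value 0.05) and -0.40 (7 against 5) in sgControl, and -0.46 and -0.68 for the first 2 in sgRELA.

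Leaving out 1 replicate gave 38 to 68 calls for the guide on day 6 (38 without sgRELA replicate 2), 16 to 26 on day 7 (16 without sgRELA replicate 1) and 66 to 79 over all days (66 without sgRELA replicate 2). It gave 1242 to 1469 calls for day 6 against day 5 in sgRELA and 0 to 3 for the guide by day difference. RELA in sgControl was -0.70 to -0.35 (day 6 against 5), -0.049 to 0.30 (7 against 6; -0.049 without sgControl day 6 replicate 2) and -0.51 to -0.29 (7 against 5). The cause of these shifts was not tested.

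No pairing by replicate number was seen: same-numbered samples of the other guide on 1 day correlated at -0.0268 to 0.135 in 9 pairs, and of other days at -0.275 to 0.0814 in 18 pairs, across 10465 genes. Libraries of 1 RNA were no more alike than those of different replicates, so these values cannot show that no pairing exists. With the replicate block, 33, 57, 21 and 124 genes were called for the guide on days 5, 6 and 7 and over all days, and 1 for the guide by day difference. The block ended the calls of PCNX3 from day 5 to day 6 in sgControl (0.42, adjusted p 0.0560) and RELB on day 7 (1.91, adjusted p 0.0688), and a block of guide by replicate those of PCNX3 (0.41), of SIPA1 in sgControl (-0.52, adjusted p 0.0539) and of AP5B1 in sgRELA (0.31, adjusted p 0.0619) from day 5 to day 7. It changed no other call of a member. ENSG00000306723 and RELA-DT had the fewest counts, which limits their precision. The window of 100 kb held 1 gene called over all days and that of 500 kb held 3, where 0.363% of all genes tested were called.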
